A study of Danio rerio with 8 samples.

Results

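Expression of 10 genes of the eye lens was examined in whole zebrafish embryos: the alpha crystallin cryaa, the acidic beta crystallins cryba1a, cryba1b, cryba2a, cryba2b and cryba4, the basic beta crystallin crybb1, and the lens membrane proteins lim2.1, mipa and mipb. Their probes were taken by gene symbol, as every probe whose transcript accession matched 1 of these symbols. The 10 genes were chosen with earlier results of these data known. Their counts beside those of all probes therefore describe them and carry no test of the set. All 10 genes had a probe, and together they had 27 of the 39162 probes on the array, out of 12792 genes that could be named. The arrays carried 4 probes each for cryaa, cryba2a and crybb1, 3 for cryba2b and 2 for each of the other genes.

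The lens is built from elongated fibre cells that fill with crystallins, very stable proteins that keep the tissue transparent. Alpha crystallins belong to the small heat shock proteins and act as chaperones, whereas beta and gamma crystallins form a separate superfamily of structural proteins. The fibre cell membrane is rich in MIP, also called aquaporin 0, a water channel and adhesion protein that zebrafish carry as the copies mipa and mipb, and in LIM2, a membrane protein with several transmembrane segments. In zebrafish the lens arises from the surface ectoderm on the first day of development and its fibre cells differentiate while the heart tube and the fin buds form.

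RNA came from pools of 50 whole AB embryos at 24 hpf (hours post fertilisation), injected at the 1-cell stage with 1.5 ng of a morpholino and 0.25 ng of a miRNA mimic. MO-Ct embryos (2 arrays) received the control morpholino and the control mimic, MO-Tbx5a embryos (3 arrays) the morpholino that blocks translation of tbx5a and the control mimic, and MO-Tbx5a+miR-19a embryos (3 arrays) the same morpholino with the miR-19a mimic. Injection gives a transient depletion in the whole embryo, with no genetic mutant, and tbx5a RNA was not analysed here. The question of the design is whether replacing miR-19a moves expression in Tbx5a morphants back towards the control.

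Several facts of the series bear on all values. For the group with the mimic the treatment label reads MO-19a, whereas titles and design give the miR-19a mimic, and the design was followed. The labels also give this group another labelling kit and 500 ng of RNA in place of 200 ng, so kit and group cannot be told apart in any comparison with it. Array medians were 7.77 to 7.80 on the log2 scale, values ran from 4.06 to 19.4, and 4.26% to 4.77% of the values of an array lay under 5, close to the lower end. Nothing in the labels says that replicates came from separate clutches, so p-values measure only the spread between these arrays.

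The scanner files of the 3 MO-Tbx5a+miR-19a samples did not follow the columns of the same samples in the deposited matrix, and the lens genes showed it. Across probes, the deviation of each matrix column from its group mean had a Pearson r of -0.10, 0.31 and 0.07 with that of its own scan. After background correction and mapping to the distribution of the matrix, all 27 probes lay higher on all 3 scans than on any of the 8 matrix arrays, which held for 20.9% of all probes. For cryba4 probe A_15_P105627 the scans gave 15.8, 15.7 and 14.7, whereas its highest matrix value was 13.6, in MO-Ct. The scans were therefore used only to name probes and to read their flags, and all comparisons rest on the matrix. On the scans the 27 probes were all well above background and 0 were saturated. These flags hold for the scans only and do not show detection in the matrix. The cryaa probe A_15_P659361, for example, read 6.65 to 7.87 on the scans and 4.62 to 5.10 in the matrix.

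**Figure D1:**
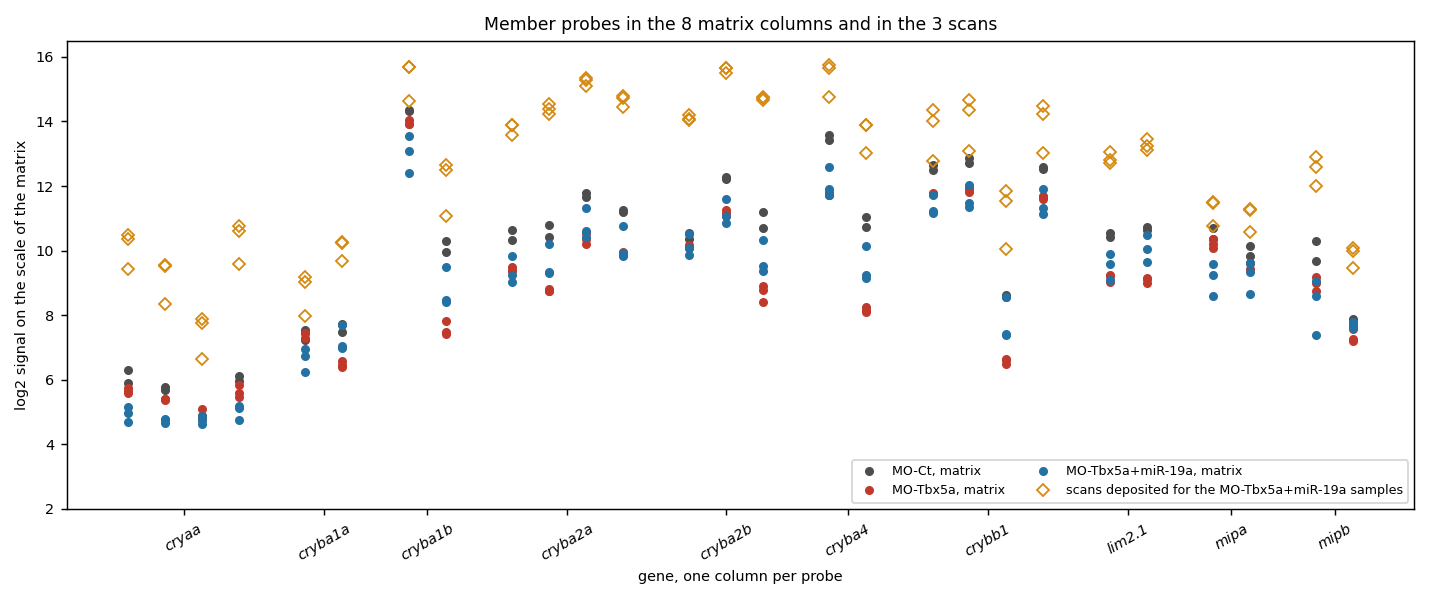
Log2 signal (vertical axis) of the 27 probes of the 10 genes (horizontal axis, one column per probe). Filled points are the 8 matrix arrays by group and open diamonds the 3 scans deposited for the MO-Tbx5a+miR-19a samples, mapped to the matrix scale. The diamonds lie above every filled point of their probe.

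Depletion of Tbx5a went with lower lens transcripts. A probe was called when the fold change (FC) was above 1.3 with p and the Benjamini-Hochberg adjusted p of limma under 0.05. Between MO-Tbx5a and MO-Ct 19 of the 27 probes were called lower and 0 higher, where 19.6% of all probes were called lower and 18.7% higher. At an unadjusted limma p under 0.05 these counts were 21 and 0 (shares of all probes not given here). The median change of the 27 probes was -1.01 on the log2 scale against 0.01 over all probes, with a range of -2.71 to 0.12. Taking for each gene the probe with the highest mean over all arrays (its brightest probe), 6 of 10 genes were called lower (cryba2a, cryba2b, cryba4, crybb1, lim2.1 and mipb). The pools held whole embryos, so fewer lens cells and less RNA per lens cell cannot be told apart.

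With the miR-19a mimic calls went both ways, at shares near those of all probes. Against MO-Tbx5a 7 of the 27 probes were called higher and 7 lower (25.9% each). Of all probes 20.2% were called higher and 21.9% lower. The median change of the 27 probes was 0.02. By the brightest probes 4 genes were called lower (cryaa, cryba1a, cryba1b and mipa) and lim2.1 higher, with a median change of -0.44 over the 10 genes. Against MO-Ct the MO-Tbx5a+miR-19a embryos had 22 of 27 probes called lower and 0 higher, where 5.95% of all probes were called lower and 5.24% higher, with a median change of -1.05 against -0.02 over all probes. At an unadjusted p under 0.05 the counts were 23 lower and 0 higher (shares of all probes not given here). All 10 genes were called lower there by their brightest probe. The 3 comparisons share arrays in pairs, so their counts are not independent of each other. The MO-Tbx5a arrays did not overlap the MO-Ct arrays in 24 of 27 probes, all of them lower (31.4% of all probes), and the MO-Tbx5a+miR-19a arrays lay wholly below MO-Ct in 22 (24.4% of all probes).

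The count against MO-Ct depended on the control arrays. Without MO-Ct replicate 2 only 8 of 27 probes and 4 of 10 genes (cryaa, cryba2b, cryba4 and crybb1) were still called lower in MO-Tbx5a+miR-19a, beside 1.11% of all probes. Every brightest probe stayed lower, and the 6 lost calls had adjusted p values of 0.0601 (mipa), 0.0607 (cryba1b), 0.151 (cryba2a), 0.164 (mipb), 0.193 (lim2.1) and 0.209 (cryba1a). The count of 19 probes lower in MO-Tbx5a lay between 16 and 21 when any 1 MO-Tbx5a or MO-Tbx5a+miR-19a array was left out. Of all probes 18.3% to 19.8% were called lower in these fits.

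**Figure D2:**
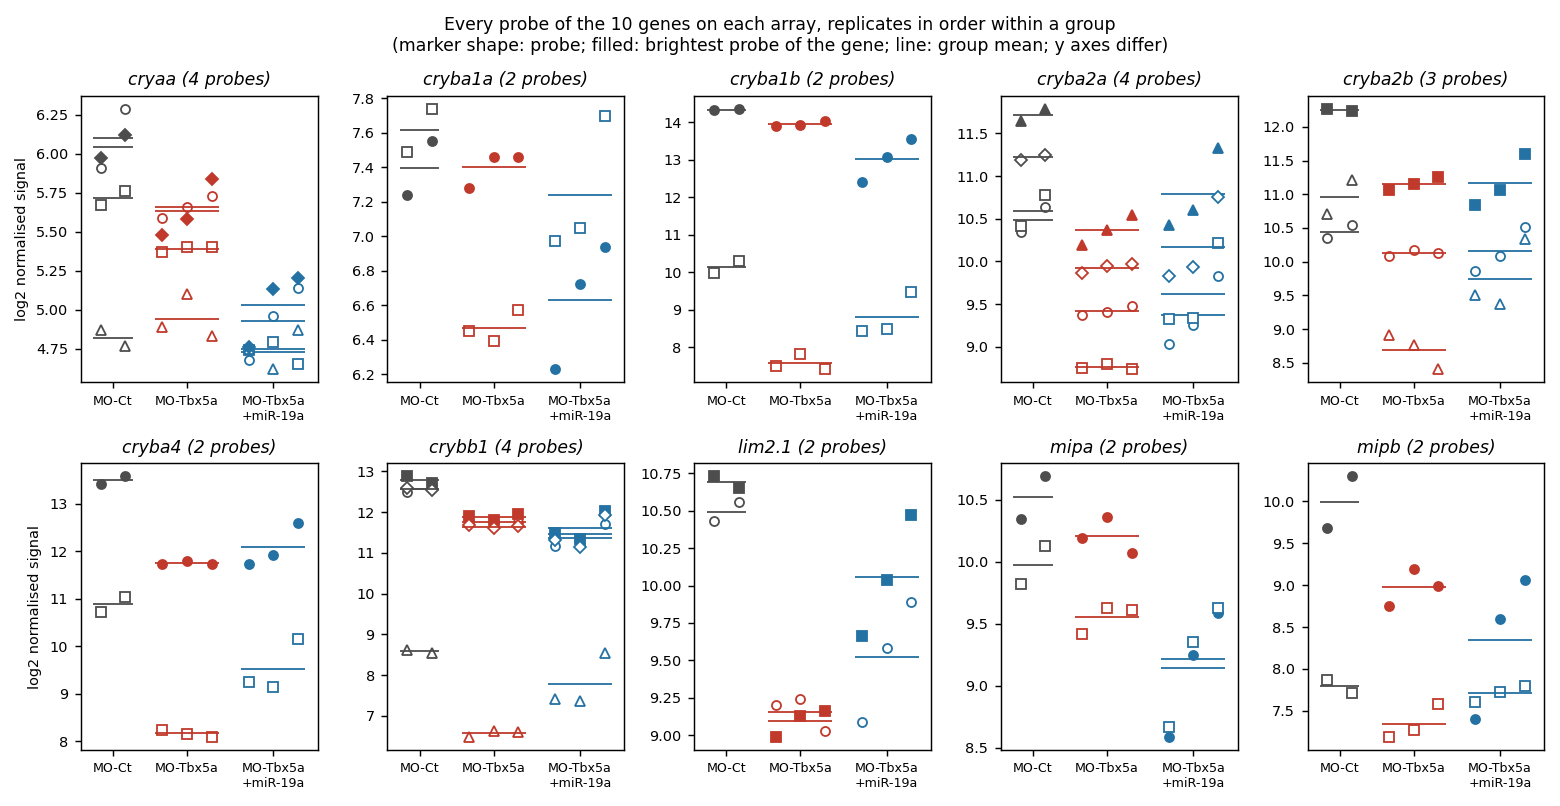
Log2 normalised signal (vertical axes, which differ between panels) of every probe of the 10 genes on each of the 8 arrays, grouped by treatment. Marker shapes are probes, filled markers the brightest probe of the gene and lines group means. MO-Ct had the highest group mean in 25 of 27 probes.

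The alpha crystallin cryaa, a chaperone that binds unfolding proteins, had low values on the log2 scale. Its brightest probe (A_15_P744086) read 5.97 and 6.12 in MO-Ct, 5.48, 5.58 and 5.84 in MO-Tbx5a, and 4.76, 5.13 and 5.20 in MO-Tbx5a+miR-19a. The 3 groups did not overlap, with MO-Ct highest and MO-Tbx5a+miR-19a lowest. The change in MO-Tbx5a against MO-Ct was -0.41 (SE 0.16) and just missed the threshold (limma, adjusted p = 0.0517), whereas MO-Tbx5a+miR-19a was lower than MO-Tbx5a by -0.60 (SE 0.14, adjusted p = 0.00336) and lower than MO-Ct (adjusted p = 0.0022). The first of these passed without MO-Tbx5a replicate 3 (adjusted p = 0.0221) or without MO-Tbx5a+miR-19a replicate 1 (0.0312). Probe A_15_P107823 was called lower at both steps, by -0.44 and then -0.73, and A_15_P111733 at the second only. The remaining probe, A_15_P659361, stayed between 4.62 and 5.10 on all arrays and was called in no comparison.

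Among the acidic beta crystallins cryba4 fell most in Tbx5a morphants. Its brightest probe (A_15_P105627) read 13.42 and 13.57 in MO-Ct, 11.72, 11.80 and 11.72 in MO-Tbx5a, and 11.72, 11.91 and 12.60 in MO-Tbx5a+miR-19a. Both morphant groups lay below MO-Ct and overlapped each other. The change was -1.75 (SE 0.20, limma adjusted p = 5.09e-05) in MO-Tbx5a, an FC of 3.36. The group with the mimic differed from MO-Tbx5a by 0.33 with a 95% interval of -0.06 to 0.72 (adjusted p = 0.152). This passed without MO-Tbx5a+miR-19a replicate 1 (0.51, adjusted p = 0.0381). The other probe of the gene (A_15_P175256) read 10.73 and 11.03 in MO-Ct, 8.25, 8.15 and 8.10 in MO-Tbx5a, and 9.25, 9.15 and 10.15 in MO-Tbx5a+miR-19a. Here no groups overlapped. The fall was -2.71 (SE 0.24, adjusted p = 9.79e-06), an FC of 6.56, and the rise with the mimic was 1.35 (SE 0.21, adjusted p = 0.000226). Against MO-Ct the probes stood side by side, at -1.42 and -1.36.

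The paralogs cryba1a and cryba1b encode the beta A1/A3 chain, and each had a pair of probes that went different ways. The brightest cryba1b probe (A_15_P109998) read 14.32 and 14.37 in MO-Ct, 13.91, 13.92 and 14.03 in MO-Tbx5a, and 12.40, 13.08 and 13.56 in MO-Tbx5a+miR-19a. The groups stepped down without overlap, by -0.39 (SE 0.24, adjusted p = 0.215, not called) and then by -0.94 (SE 0.21, adjusted p = 0.00305). The first step passed when only the MO-Ct and MO-Tbx5a arrays were fitted (limma, adjusted p = 0.0223). The other cryba1b probe (A_15_P726736) read 9.97 and 10.31 in MO-Ct, 7.49, 7.83 and 7.42 in MO-Tbx5a, and 8.42, 8.48 and 9.48 in MO-Tbx5a+miR-19a. It fell by 2.56 (SE 0.26, adjusted p = 2.42e-05) and rose by 1.21 (SE 0.24, adjusted p = 0.00102). Against MO-Ct the probes stood at -1.33 and -1.35. The mean of both cryba1b probes changed by -1.48 in MO-Tbx5a and was called lower (limma, adjusted p = 0.000887).

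For cryba1a the brightest probe (A_15_P113448) read 7.24 and 7.55 in MO-Ct, 7.28, 7.46 and 7.46 in MO-Tbx5a, and 6.23, 6.72 and 6.94 in MO-Tbx5a+miR-19a. MO-Tbx5a lay within MO-Ct (change 0.01, 95% interval -0.40 to 0.41), and only the group with the mimic lay below, at -0.77 against MO-Tbx5a (SE 0.16, adjusted p = 0.0020). Its difference from MO-Ct (adjusted p = 0.0209) was lost without either MO-Ct array (0.0554 and 0.209) or when MO-Tbx5a+miR-19a replicate 1 was left out (0.0531). The other probe (A_15_P721636) read 7.49 and 7.74, then 6.45, 6.39 and 6.57, then 6.97, 7.05 and 7.70. It was called lower by -1.15 (SE 0.19) in MO-Tbx5a and higher by 0.77 (SE 0.17) with the mimic, where replicate 3 reached the MO-Ct range.

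The beta A2 chains cryba2a and cryba2b were lower in both morphant groups. The brightest cryba2a probe (A_15_P740086) read 11.65 and 11.79 in MO-Ct, 10.19, 10.37 and 10.54 in MO-Tbx5a, and 10.43, 10.60 and 11.33 in MO-Tbx5a+miR-19a. The morphant groups overlapped each other and lay below MO-Ct. All 4 cryba2a probes were called lower in MO-Tbx5a, by -1.07 to -1.83, and against MO-Ct in the group with the mimic, by -0.93 to -1.12, and 1 of them (A_15_P725117) was called higher with the mimic, by 0.86 (SE 0.20). For the brightest probe the difference with the mimic was 0.42 (adjusted p = 0.0907), which passed without MO-Tbx5a+miR-19a replicate 1 (0.60, adjusted p = 0.0284). Its fall against MO-Ct with the mimic was lost without MO-Ct replicate 1 (adjusted p = 0.0796), MO-Ct replicate 2 (0.151) or MO-Tbx5a+miR-19a replicate 1 (0.0622).

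The brightest cryba2b probe (A_15_P696831) read 12.27 and 12.23 in MO-Ct, 11.06, 11.15 and 11.25 in MO-Tbx5a, and 10.84, 11.07 and 11.60 in MO-Tbx5a+miR-19a. The MO-Tbx5a+miR-19a arrays lay on both sides of the MO-Tbx5a arrays. It was lower in MO-Tbx5a by -1.10 (SE 0.18, adjusted p = 0.000527). The difference with the mimic was 0.02 (95% interval -0.34 to 0.37), whose sign turned without MO-Tbx5a replicate 1 (-0.03) or MO-Tbx5a+miR-19a replicate 3 (-0.20). Probe A_15_P740901 fell by 2.26 and rose by 1.04, both called. Probe A_15_P113660, at 10.35 and 10.54 in MO-Ct and 10.08 to 10.17 in MO-Tbx5a, was called in no comparison.

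The basic beta crystallin crybb1 was called lower in Tbx5a morphants by all 4 of its probes. The brightest (A_15_P637906) read 12.88 and 12.71 in MO-Ct, 11.91, 11.81 and 11.95 in MO-Tbx5a, and 11.48, 11.34 and 12.04 in MO-Tbx5a+miR-19a. Both morphant groups lay below MO-Ct, and replicate 3 with the mimic lay above all MO-Tbx5a arrays while replicates 1 and 2 lay below them. The difference with the mimic was -0.27 (SE 0.16, adjusted p = 0.18), which passed without MO-Tbx5a+miR-19a replicate 3 (-0.48, adjusted p = 0.00925). Probe A_15_P331789 was called lower at both steps, by -0.81 (SE 0.16) and -0.39 (SE 0.14). Probe A_15_P751136 was lower in MO-Tbx5a by -0.92 and stood at -1.11 against MO-Ct with the mimic. Its difference between the morphant groups, -0.19, was not called.

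The fourth crybb1 probe, A_15_P728316, read 8.62 and 8.55 in MO-Ct, 6.49, 6.63 and 6.60 in MO-Tbx5a, and 7.41, 7.37 and 8.55 in MO-Tbx5a+miR-19a. MO-Tbx5a was apart from both other groups, and replicate 3 with the mimic equalled the lower MO-Ct array. It fell by 2.01 (SE 0.27, adjusted p = 0.000125) and rose by 1.20 (SE 0.24, adjusted p = 0.00126), and its difference from MO-Ct, -0.81, was not called (adjusted p = 0.0737). In the GRCz12tu annotation crybb1 and cryba4 are next to each other, and cryba1a is next to crybb1l3. The latter, a further basic beta crystallin, was called lower in each of the 3 comparisons, by -0.73 in MO-Tbx5a, -0.38 with the mimic and -1.11 against MO-Ct.

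Of the membrane proteins lim2.1 was the one that rose with the mimic by its brightest probe. That probe (A_15_P622841) read 10.73 and 10.65 in MO-Ct, 8.99, 9.13 and 9.16 in MO-Tbx5a, and 9.66, 10.04 and 10.47 in MO-Tbx5a+miR-19a. The group with the mimic lay between the others without overlap. It fell by 1.60 (SE 0.19, adjusted p = 5.32e-05) and rose by 0.96 (SE 0.17, adjusted p = 0.00047). Its remaining difference from MO-Ct, -0.63 (adjusted p = 0.0474), was lost when any of 6 arrays was left out: MO-Ct replicate 1 (0.193) or 2 (0.193), MO-Tbx5a replicate 1 (0.0591) or 2 (0.0649), and MO-Tbx5a+miR-19a replicate 1 (0.126) or 2 (0.0841). The other lim2.1 probe (A_15_P108650) was lower by -1.34 in MO-Tbx5a, and its difference with the mimic was 0.36 (adjusted p = 0.0928).

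The aquaporin 0 copies were not called higher with the mimic by any probe. The brightest mipa probe (A_15_P103570) read 10.35 and 10.69 in MO-Ct, 10.19, 10.36 and 10.07 in MO-Tbx5a, and 8.59, 9.25 and 9.59 in MO-Tbx5a+miR-19a. MO-Tbx5a overlapped MO-Ct, and all arrays with the mimic lay below both. Neither mipa probe was called in MO-Tbx5a (-0.31 and -0.42, adjusted p = 0.302 and 0.15), whereas the brightest was lower with the mimic by -1.06 (SE 0.21, adjusted p = 0.0010) and both were lower than MO-Ct, by -1.38 and -0.76.

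For mipb the brightest probe (A_15_P205771) read 9.68 and 10.30 in MO-Ct, 8.75, 9.19 and 8.99 in MO-Tbx5a, and 7.40, 8.59 and 9.06 in MO-Tbx5a+miR-19a. Its arrays with the mimic spread over more than those of any other probe of the 10 genes (SD 0.86, n = 3) and overlapped MO-Tbx5a. The change in MO-Tbx5a was -1.01 (SE 0.36, adjusted p = 0.0386) and was lost without MO-Ct replicate 2 (0.288), MO-Tbx5a replicate 1 (0.0985) or MO-Tbx5a replicate 3 (0.0621). The difference with the mimic was -0.63 (adjusted p = 0.125), which passed without MO-Tbx5a+miR-19a replicate 3 (-0.98, adjusted p = 0.0164). The other mipb probe (A_15_P774451) was called lower in MO-Tbx5a, by -0.44, and lay within 0.08 of MO-Ct with the mimic. It was higher than in MO-Tbx5a by 0.36 (adjusted p = 0.0287), not called only because its FC of 1.29 was under 1.3.

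**Figure D3:**
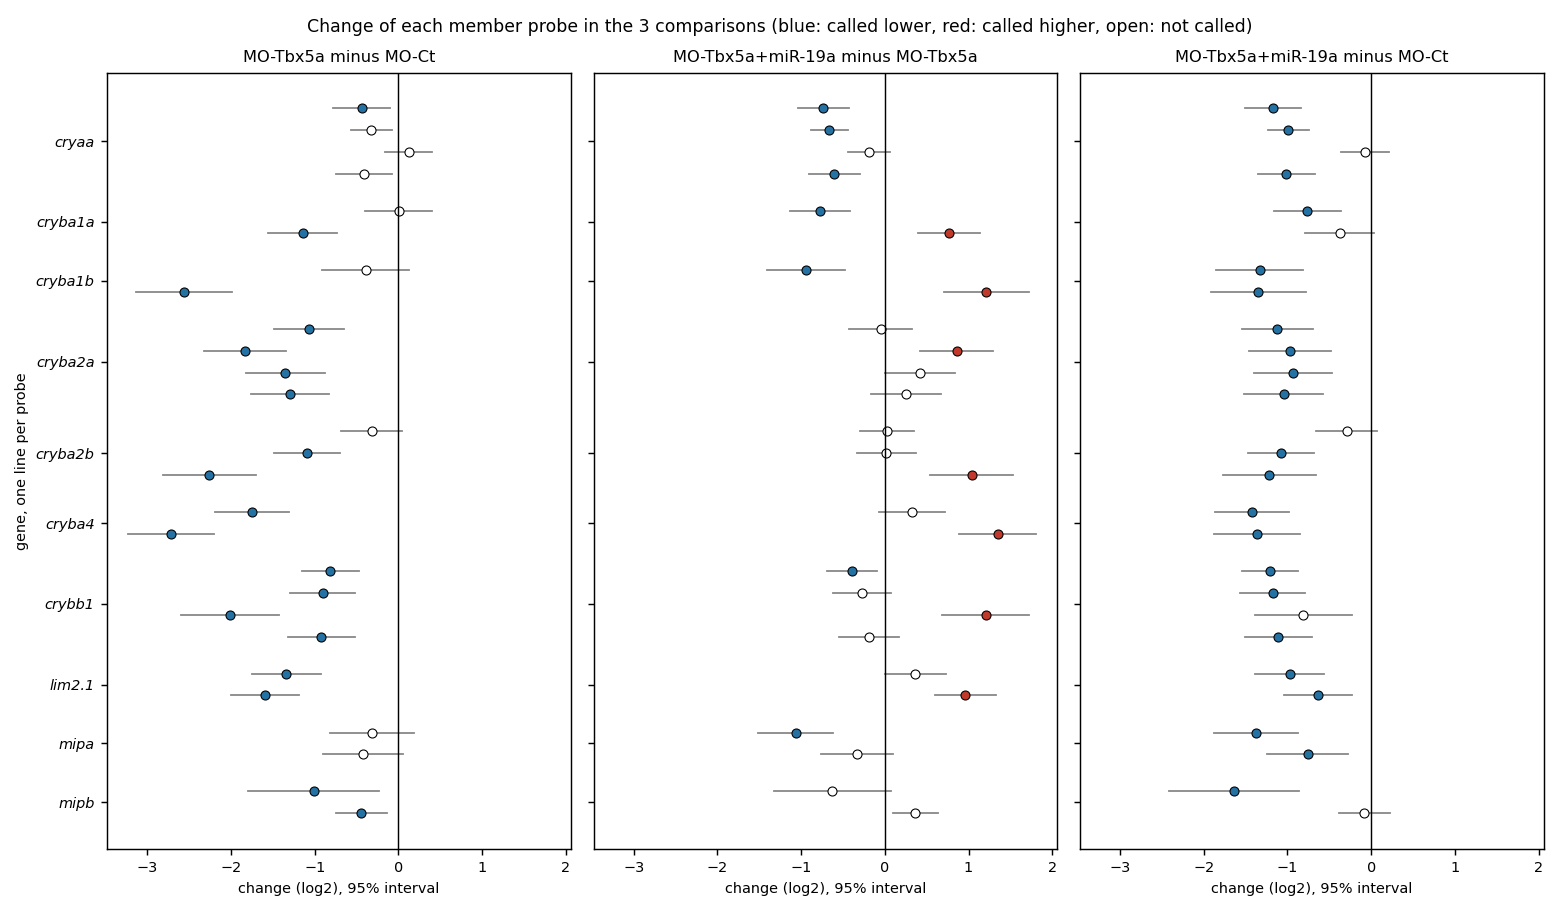
Change of each of the 27 probes on the log2 scale with its 95% interval from limma (horizontal axes) in the 3 comparisons (panels), one line per probe grouped by gene. Blue points are called lower, red points called higher and open points not called. No red point appears in the outer panels, and the middle panel holds 7 blue and 7 red points.

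Probes of 1 gene disagreed in size in all 3 comparisons, and in the direction of their calls between MO-Tbx5a and MO-Tbx5a+miR-19a. The 7 probes that were called lower in Tbx5a morphants and higher with the mimic came 1 each from cryba1a, cryba1b, cryba2a, cryba2b, cryba4, crybb1 and lim2.1 (25.9% of the 27 probes, against 14.1% of all probes). For cryba1a, cryba1b and crybb1 another probe of the same transcript accession was called lower with the mimic. The spread of changes within a gene was 0.11 to 2.17 on the log2 scale in MO-Tbx5a against its control and 0.54 to 2.15 with the mimic, both highest for cryba1b, and between MO-Ct and the group with the mimic it was 0.01 to 1.56. Of the 10 genes, 5 were called lower in MO-Tbx5a by every probe (cryba2a, cryba4, crybb1, lim2.1 and mipb). Where the probes lie on the transcripts was not examined here, nor whether a probe also binds the transcript of a near copy.

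The arrays with the mimic differed among themselves more for the lens genes than for other probes. The median SD of the 27 probes was 0.41 in MO-Tbx5a+miR-19a, against 0.13 over all probes, whereas it was 0.09 in MO-Tbx5a (0.13 over all probes) and 0.11 in MO-Ct (0.11). Replicate 3 was the highest array of its group in 26 of 27 probes (30.4% of all probes) and replicate 1 the lowest in 20 (34.8%). Without replicate 3 the group with the mimic had 11 probes called lower and 7 higher against MO-Tbx5a, beside 20.5% and 18.6% of all probes. Without replicate 1 it had 6 lower and 11 higher, beside 20.8% and 19.6%. The median change at this step was -0.20 without replicate 3 and 0.17 without replicate 1. The sign of the median over the 27 probes at this step therefore rested on single arrays. By the brightest probe 4 to 6 of the 10 genes were called lower and 1 to 3 higher whichever array was left out. Of all probes 20.5% to 23.2% were called lower and 18.6% to 21.1% higher in these fits. With all arrays and any probe counted, 5 genes had a probe called lower and 7 a probe called higher.

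Other genes of the lens were read from lists. Gamma crystallins, the most compact lens proteins and abundant in fish, were called lower for 22 of 35 genes and higher for 2 in MO-Tbx5a (median -1.40 over the brightest probes), led by crygm2d2 (-2.72), crygm2d7 (-2.70) and crygm2a (-2.64). With the mimic 6 gamma crystallins were called lower and 4 higher against MO-Tbx5a, and 21 lower and 1 higher against MO-Ct. Many of these genes are near-identical copies, so their probes may not be separate measurements. Of the 9 other alpha and beta crystallins 5 were called lower in MO-Tbx5a (cryabb, cryba1l1, crybb1l2, crybb1l3 and crybgx) and crybb3 higher. By the brightest probe the largest change there was that of cryba1l2, at -0.10 in MO-Tbx5a and -1.66 (limma, adjusted p = 3.1e-05) with the mimic. The brightest cryba1a and mipa probes showed the same order. Another cryba1l2 probe (A_15_P659501) did not, being called lower in MO-Tbx5a (-0.495) and not called with the mimic (-0.19). The dimmer cryba1l1 probe (A_15_P505197) was called lower in MO-Tbx5a by -2.08 and higher with the mimic by 1.17.

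Other lens membrane and cytoskeleton genes were called lower for 4 of 12 measured genes in MO-Tbx5a (lim2.3, lim2.4, dnase1l1l and gja8a) and higher for caprin2 and lgsn. The paralog lim2.3 went the way of lim2.1, at -2.51 in MO-Tbx5a and 1.75 with the mimic, whereas lim2.2 was called in no comparison. The nuclease dnase1l1l, which degrades DNA of lens fibre nuclei in zebrafish, was lower at both steps, by -0.73 and -0.81. By the brightest probe the beaded filament gene bfsp2 and the connexin gene gja8b were not called in MO-Tbx5a (-0.28 and 0.09) and were lower with the mimic by -0.89 and -1.05. Another bfsp2 probe (A_15_P755001) was called lower in MO-Tbx5a (-0.40), whereas its remaining probes (-0.18 and -0.39) were not. Against MO-Ct 5 of these genes were called lower with the mimic (bfsp2, dnase1l1l, gja8a, gja8b and lim2.4), and at an unadjusted p under 0.05 7 were lower and 2 higher.

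Transcription factors of lens development gave other counts. The pools held whole embryos, so the values of these factors in the lens cannot be told apart from those in other tissues. Of 11 measured regulators 0 were lower in MO-Tbx5a by the brightest probe in limma, also at an unadjusted p under 0.05, and 3 were called higher, namely mafba (1.28), pitx3 (1.03) and pax6b (0.87). With the mimic these 3 were called lower by -1.34, -1.03 and -1.31, and none of them was called against MO-Ct. Both pax6b probes rose, whereas the other mafba probe (0.17) and the other pitx3 probes (-0.15 and -0.04) were not called. Of the 24 regulator probes 3 were called lower in MO-Tbx5a, 1 each of six3b (-1.03), prox1a (-0.74) and sox1a (-0.41), and 6 higher. Among the 6 were the pax6a probes A_15_P726726 and A_15_P754186 (0.52 each), neither of them the brightest. The lens placode factor foxe3 had changes of -0.35, 0.04 and -0.31 in the 3 comparisons and was not called. Against MO-Ct pax6a and sox2 were lower with the mimic by the brightest probe (-0.52 and -0.51) and prox1a was higher (0.45). The other prox1a probe stood at -0.005 there and was not called. The other pax6a probes stood at -0.07 to -0.46 there, and of them only A_15_P745571 (-0.45) was called.

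Pigment cell genes, which mark another cell type of the embryo and the eye, were also lower in MO-Tbx5a but not against MO-Ct with the mimic. Of 8 measured genes 5 were called lower in MO-Tbx5a by the brightest probe, among them pmelb (-1.46), pmela (-1.12) and slc45a2 (-0.90), and tyr was higher. Another pmela probe (A_15_P130456) went the other way, called higher in MO-Tbx5a (0.48) and lower with the mimic (-0.78). With the mimic pmelb, pmela, slc45a2 and dct were called higher, and against MO-Ct tyr was called higher (0.71) and 0 were lower in limma, also at an unadjusted p under 0.05. As a mean over the list and relative to the mean of all arrays, pigment genes lay at 0.16 to 0.28 in MO-Ct, -0.34 to -0.32 in MO-Tbx5a and 0.01 to 0.42 in MO-Tbx5a+miR-19a. The 10 lens genes lay at 0.68 to 0.83, -0.22 to -0.07 and -0.82 to 0.07. The part of pigment genes or of developmental stage in the lens values was not tested.

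**Figure D4:**
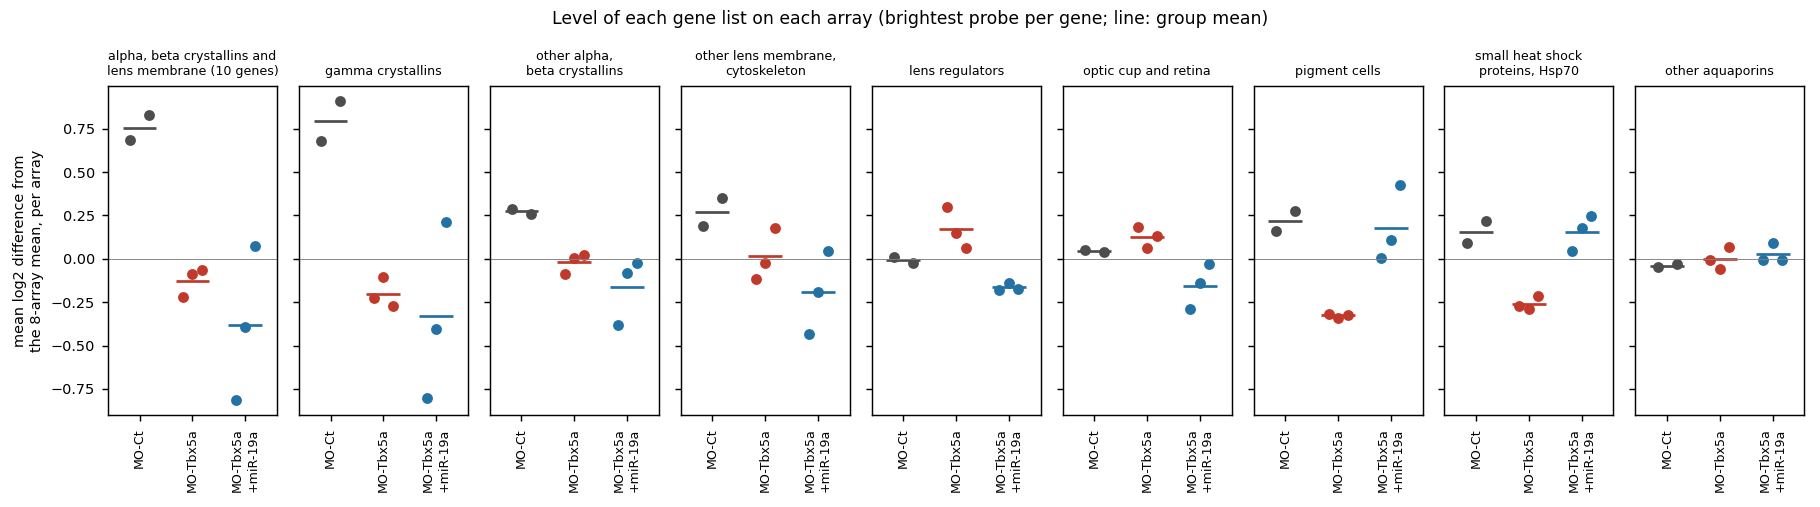
Mean log2 difference from the 8-array mean (vertical axis) of the brightest probe of each gene in a list, one point per array, by treatment (horizontal axis). Lines are group means and panels are gene lists. The 10 lens genes and the gamma crystallins are highest in MO-Ct and spread widely in MO-Tbx5a+miR-19a, where the pigment genes lie on both sides of the MO-Ct values.

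Among all other named genes, those whose brightest probe went most like the mean of the 10 genes over the 8 arrays were crygm2d12 (Pearson r = 0.990), cryba1l1 (0.989), lim2.4 (0.988), slc29a4a (0.987) and crygm2d20 (0.984), out of 12782 genes compared. All but slc29a4a, a gene of the nucleoside transporter family, are lens genes of the lists above. The 8 arrays fall into 3 groups, so these values describe the pattern and carry no test. Within the 10 genes the agreement with their own mean was highest for cryba2b (0.96) and lowest for lim2.1 (0.62). That mean includes the gene itself, which raises these values, so they cannot be set beside those of the other genes.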

How the data were processed

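Values were the deposited log2 signals of 1-colour Agilent arrays. Per the methods, the authors subtracted background by normexp (offset 16), normalised arrays by cyclic loess and used limma. The labels name Feature Extraction 10.7 for MO-Ct and MO-Tbx5a and 9.1 for MO-Tbx5a+miR-19a, and the file headers 10.7.3.1. The deposited intensity files served to name probes through their accessions (RefSeq table of GRCz12tu, names only) and to examine the scans (median spot and background signals). The flags for background and saturation are those of Feature Extraction in these files. A symbol was found for 24716 probes.

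Here, lmFit and eBayes (limma 3.58.1, R 4.3.3) fitted 1 mean per group to all 8 arrays and all probes, with no filter and the study's criteria (FC above 1.3, p and adjusted p under 0.05). Tests are two-sided and adjusted over all probes. The script was tested on simulated data. A gene in a list was read from its brightest probe. All 27 probes enter the counts and ranges. From lists the 3 genes of largest change were named, and genes where 5 or fewer were called; further ones were chosen after their values were seen. The members and lists were chosen with earlier results of these data known. The number of arrays limits the precision. Alternatives were other normalisations, scaling, filters, variance moderation, thresholds, probe choice, a replicate block and leaving out each array. No sequences or coordinates of probes were used. One gene of the optic cup list is not reported here.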

Additional observations from a re-analysis of the deposited data

Results flagged for a closer look

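A signal appeared in data that no comparison used. On the 3 scans deposited for the MO-Tbx5a+miR-19a samples, mapped to the scale of the matrix, the mean of a probe of the 10 genes minus its MO-Ct mean had a median of 2.55 on the log2 scale (range 0.73 to 4.28), against -0.08 over all probes. Of the gamma crystallin probes 37 of 45 lay above all matrix arrays on all scans, and their median difference was 4.08. Of the pigment probes 9 of 13 did so (median 1.33), and of the lens regulator probes 8 of 24 (median 0.25). The ranks of all probes on the scans correlated with the MO-Ct columns at a Spearman rho of 0.934 to 0.949, with the MO-Tbx5a+miR-19a columns at 0.928 to 0.943 and with the MO-Tbx5a columns at 0.900 to 0.919. What RNA or processing gave the scans was not tested.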

How the results depend on the processing

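Counts of called probes and genes stayed within 1.5 times the reported ones under quantile, cyclic loess and 75th percentile scaling, a filter on dim probes, trended robust variance and fits of only the groups compared. The filter kept probes with a mean of at least 6 on the log2 scale, which left out cryaa. With FC above 2 MO-Tbx5a+miR-19a against MO-Tbx5a gave 5 called probes and 1 gene. The probes were higher for cryba1b, cryba2b, cryba4 and crybb1 and lower for mipa, the 1 gene by its brightest probe. The share of all probes at that threshold is not given here. Leaving out 1 array gave 8 to 24 probes and 4 to 10 genes lower with the mimic than in MO-Ct, the lowest without MO-Ct replicate 2. At the step with the mimic the median change ranged from -0.20 to 0.17 and that of cryba2b from -0.20 to 0.18, and cryba1a in MO-Tbx5a ranged from -0.15 to 0.16. With the mean of all probes of a gene cryba1a changed by -0.57 in MO-Tbx5a, and with the mimic cryba1b by 0.14 and crybb1 by 0.088, all turned in sign from the brightest probe. The cause was not tested. The fall of lim2.1 against MO-Ct kept its call in 6 of 16 alternatives, and both mipb calls were lost with trended robust variance. The replicate numbers did not pair the arrays: for MO-Tbx5a and MO-Tbx5a+miR-19a the same-number deviations correlated at -0.01, -0.11 and -0.12, and 0 of 3 arrays went best with their own number. With the replicate block 21, 16 and 23 probes were called in the 3 comparisons (shares of all probes not given here), and cryba1a in MO-Tbx5a turned to -0.088. The block also brought past the threshold cryaa in MO-Tbx5a (adjusted p = 0.0146) and, with the mimic, cryba2a (0.0267) and mipb (0.0322).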

Other observations

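Small heat shock proteins and Hsp70 genes, the chaperones to which the small heat shock family of the alpha crystallins belongs, were in part lower and then higher. By the brightest probe 7 of 16 measured genes were called lower in MO-Tbx5a and hspb8 higher. With the mimic 5 were called higher and hspb8 lower. Of the 39 probes of the list 14 were called lower and 8 higher in MO-Tbx5a, beside 19.6% and 18.7% of all probes. With the mimic 14 were called higher and 4 lower, beside 20.2% and 21.9%. The largest changes were those of hsp70l (-1.54 and 2.02), hspa4a (-1.27 and 1.41) and hspa8b (-0.91 and 1.28). By the brightest probe only hspb15 was called against MO-Ct, at -0.57, and hsp70l stood at 0.48 (limma, adjusted p = 0.25). Of all 39 probes of the list 1 was called lower there and 1 higher.

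Of the 13 other aquaporins measured, relatives of mipa and mipb, 4 were called lower and 4 higher in MO-Tbx5a, and 3 lower and 3 higher with the mimic. The brain water channel aqp4 rose by 0.85 and fell by 1.20, and aqp3b rose by 1.06 and fell by 0.97. Against MO-Ct aqp10a was the only one called (0.66), and at an unadjusted limma p under 0.05 2 were lower and 2 higher. In the optic cup and retina 2 of 15 genes were called lower in MO-Tbx5a by the brightest probe (hmx1 and hmx4) and 2 higher. With the mimic 6 were called lower and 1 higher. Of all probes 19.6% were called lower and 18.7% higher in MO-Tbx5a, and 21.9% and 20.2% with the mimic. The brightest probe of the eye field factor six6a rose by 0.69 and fell by 0.78 with the mimic. Its other probe (0.11 and -0.13) was not called. By the brightest probe vax1 was the only gene of the list called against MO-Ct (-0.54). The other vax1 probe stood at 0.07 there and was not called, whereas a dimmer hmx4 probe (A_15_P117321) was called lower (-0.62).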
